A study of Homo sapiens with 12 samples.

Results

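The cadherins and protocadherins were followed as 88 genes of the 28278 rows of the counts table. They were chosen by symbol alone: CDH followed by digits, or PCDH followed by a digit or by the name of the A, B or G cluster. Rows for 4 pseudogenes, 5 symbols with a hyphen and PCDH11Y were left out. The 88 genes divide into 5 type I cadherins, 13 type II cadherins, 5 other CDH genes, 4 delta-1 and 5 delta-2 protocadherins, 3 other PCDH genes, and the 15 PCDHA, 16 PCDHB and 22 PCDHG genes of the clusters on chromosome 5. No expression value entered the symbol rule, but the members, classes and tests were chosen with earlier results of these data known.

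RNA was sequenced from motor neuron cultures made from WA09-Islet1-GFP cells, a line of human embryonic stem cells labelled wild-type that carries a GFP reporter of the motor neuron gene ISL1. Cultures received cis-chlordane, an organochlorine pesticide, at 10 µM by the labels (the methods text gives a higher concentration) or the same volume of the solvent DMSO for 16 h. They were then lifted with trypsin and sorted by GFP. The 4 groups were control GFP-positive, treated GFP-positive, control GFP-negative and treated GFP-negative cells, with 3 libraries each. A replicate was a separate thaw of cells from this 1 line, so the spread covers cultures and not genetic backgrounds.

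Classical cadherins are calcium-dependent adhesion proteins that bind their like on a neighbouring cell and hold the actin skeleton through catenins. Type I members such as CDH2 (N-cadherin) give strong general adhesion, whereas the type II members are expressed in combinations that differ between motor pools and help motor neurons of a pool to settle together. Delta protocadherins are weaker adhesion proteins with signalling tails that act in axon and synapse formation. The clustered protocadherins give single neurons a combinatorial surface identity: each variable first exon has its own promoter, and the PCDHA and PCDHG variable exons are spliced to constant exons that all members of the cluster share.

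The promoters of the clustered genes are shown first because these genes formed the largest group that differed between the sort fractions. Each line gives bases 110 to 31 before the RefSeq start (GRCh38.p14, plus strand), with a 7-base match in capitals, and the windows are chr5:140806958-140807037 for PCDHA4, chr5:140855787-140855866 for PCDHA10, chr5:141094505-141094584 for PCDHB2, chr5:141182277-141182356 for PCDHB16, chr5:141387588-141387667 for PCDHGB4, chr5:140966366-140966445 for PCDHAC2 and chr5:141484920-141484999 for PCDHGC4.
PCDHA4: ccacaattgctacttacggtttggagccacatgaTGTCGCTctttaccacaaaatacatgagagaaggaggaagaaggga
PCDHA10: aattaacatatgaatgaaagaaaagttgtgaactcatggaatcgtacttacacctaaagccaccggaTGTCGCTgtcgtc
PCDHB2: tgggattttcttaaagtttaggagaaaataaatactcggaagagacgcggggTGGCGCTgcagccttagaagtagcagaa
PCDHB16: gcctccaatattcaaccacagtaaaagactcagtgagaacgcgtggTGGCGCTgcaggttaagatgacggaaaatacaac
PCDHGB4: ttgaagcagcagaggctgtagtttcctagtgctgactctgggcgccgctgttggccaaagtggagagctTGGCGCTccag
PCDHAC2: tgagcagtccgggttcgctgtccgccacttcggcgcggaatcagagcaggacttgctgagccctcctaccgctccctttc
PCDHGC4: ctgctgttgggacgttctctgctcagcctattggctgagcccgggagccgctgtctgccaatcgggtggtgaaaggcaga
The letters TGTCGCT stood in the 250 bases before the start, on either strand, in 10 of 13 PCDHA promoters with an entry, 1 of 14 PCDHB and 3 of 20 PCDHG promoters, against 1.31% of 27305 promoters of the same length. The letters TGGCGCT stood in 12 of 14 PCDHB promoters, none of the PCDHA promoters and 3 of 20 PCDHG promoters, against 3.14% of all. Both hold the letters CGCT, the core of the conserved element known from clustered protocadherin promoters. The 2 spellings were chosen after the promoters had been read, and a match is a description only. PCDHAC2 and PCDHGC4, whose C-type exons are known to lack this element, held neither spelling. Of the 88 genes, 69 had a promoter entry.

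Libraries held 23414935 to 38347050 counts, and levels are given as CPM, counts scaled to a common library total with TMM factors. ISL1, the basis of the sort, stood at 62.4 to 68.6 CPM in control GFP-positive and 2.41 to 2.79 CPM in control GFP-negative libraries. In treated GFP-positive libraries it stood at 8.01 to 15.3 CPM, and all 5 motor neuron markers on the list (ISL1, MNX1, SLC18A3, CHAT and PRPH) were lower there than in control GFP-positive cells. Their summed level was 1343 to 1982 CPM in control and 402 to 694 CPM in treated GFP-positive libraries, and its part in the results on cadherins was not tested. GFP-negative cells are described by their gate alone, since in controls they were higher in several marker lists. These were cycling (426 to 554 against 55.4 to 84.9 summed CPM), neural progenitor (5831 to 7753 against 2857 to 3235) and epithelium markers (695 to 961 against 163 to 217). In the astroglia list SLC1A3 was higher (means of 17.7 and 1.92 CPM), whereas GFAP, AQP4 and S100B were scarce in control GFP-negative cells (means of 0.32, 0.02 and 0.16 CPM). Interneuron and endothelium markers were higher too. So were fibroblast markers (760 to 885 against 260 to 326), of which COL1A2 hardly differed (means of 192.6 and 185.1 CPM). Correlations between libraries of a group were 0.978 to 0.988, except among the control GFP-negative libraries, where the lowest was 0.946. In these bulk samples fewer cells of a type and less RNA per cell cannot be told apart.

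CDH2 was the most abundant cadherin per length in control cells of both sort fractions. Levels between genes are given as CPM per kb of exon that is not shared with another PCDH gene. For PCDHGB4 and PCDHGB6 this leaves out 64.4% and 32.1% of the exon bases. How reads of shared exons were assigned is not given. If they were counted, the per-kb levels of these genes are too high, so their places in the order are uncertain. In control GFP-positive libraries CDH2 stood at 28.5 to 41.1 CPM per kb, PCDHB2 at 28.4 to 34.6 and PCDHGB4 at 20.4 to 33.1, so that these neighbours in the order overlapped. PCDH1 (16.7 to 22.3), CDH24 (16.9 to 21.4) and PCDHGB6 (11.7 to 18.4) followed and overlapped with one another, and CDH6 came next at 7.54 to 10.3. In control GFP-negative libraries CDH2 led at 27.8 to 33.7 CPM per kb and did not overlap with PCDHB2, the next, at 14.5 to 18.5. Of the 88 genes, 68 had a mean of at least 1 CPM in control GFP-positive cells and 60 in control GFP-negative cells. CDH17 (intestinal cadherin), CDH16 (kidney cadherin), CDH19 and PCDHB1 had means of at most 0.122 CPM in each of the 4 groups.

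The first comparison asked which cadherins changed with cis-chlordane in the GFP-positive cells. Of the 13 type II cadherins 11 could be tested, and 10 of these fell while 1 rose. CDH5, among the 10, passed the count filter through its control libraries alone (12, 14 and 23 counts against 2, 1 and 5 in treated libraries). With at least 10 counts required in every library, 9 of 10 type II cadherins tested were lower. Of the 78 members tested, 22 were lower (28.2%) and 4 higher (5.13%), where a call needed at least a 2-fold change besides an adjusted p under 0.05 in edgeR's quasi-likelihood test. Among all 15333 genes tested, 11.1% were lower and 12.7% higher. The median log2 fold change was -1.86 for the type II cadherins, -0.48 for all members and 0.03 for all genes tested. The 10 members too scarce to test there were CDH9, CDH16, CDH17, CDH19, CDH26, PCDHA1, PCDHB1, PCDHGA5, PCDHGA7 and PCDHGB3, of which CDH9 and CDH19 are type II cadherins.

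**Figure D1:**
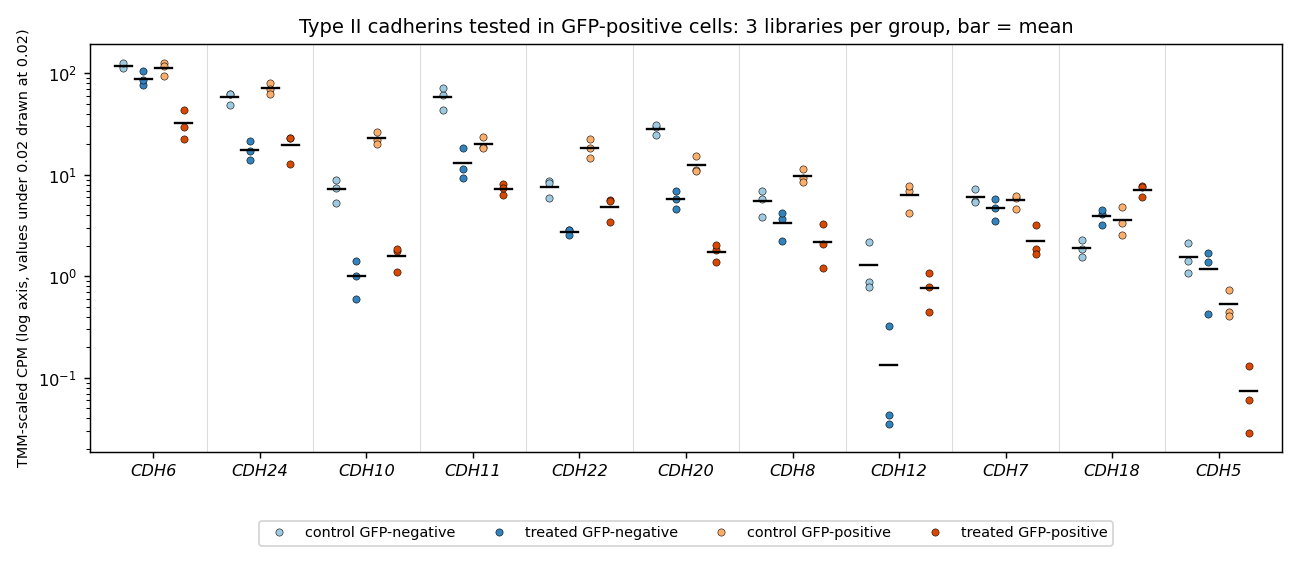
TMM-scaled CPM on a log axis for the 11 type II cadherins tested in GFP-positive cells; points are single libraries, bars are means of 3 libraries, and colours mark the 4 groups. The treated GFP-positive points lie under the control GFP-positive points for 10 genes and above them for CDH18.

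CDH10 (ENSG00000040731.10, chr5:24487100-24644978, minus strand) showed the largest fall. Its levels were 22.3, 20.1 and 26.3 CPM in control and 1.11, 1.78 and 1.88 CPM in treated GFP-positive libraries. The groups lay far apart, with a log2 fold change of -3.77 ± 0.25 (SE; adjusted p = 3.29e-23). CDH12, on the same arm of chromosome 5 (chr5:21750673-22853344, minus strand), had 7.01, 4.23 and 7.71 CPM in control and 0.78, 1.09 and 0.45 CPM in treated libraries (log2 fold change -2.96 ± 0.32, adjusted p = 1.1e-12). Both are type II cadherins of the nervous system. CDH18, the next type II gene on that arm (chr5:19471296-20575873, minus strand), went the other way, with 3.36, 2.55 and 4.83 CPM in control and 7.77, 7.53 and 6.09 CPM in treated libraries. Its log2 fold change was 1.06 ± 0.26 (adjusted p = 0.000296), and the call was kept in 10 of 15 alternative analyses. It was lost without control GFP-positive replicate 2 or treated GFP-positive replicate 1, in 1 fit of all 12 libraries, with the GC trend removed and under a test against a fold change of 2 itself (highest adjusted p 0.824).

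CDH20, the MN-cadherin of chick motor neurons, stood at 11.2, 10.9 and 15.3 CPM in control and 1.80, 2.06 and 1.38 CPM in treated GFP-positive libraries. No treated library reached the control range (log2 fold change -2.77 ± 0.26, adjusted p = 1.01e-15). CDH8, which marks subsets of spinal neurons, was 9.32, 8.49 and 11.4 CPM against 2.07, 3.26 and 1.22 CPM (log2 fold change -2.09 ± 0.27, adjusted p = 1.26e-09). CDH7, another motor pool cadherin, fell less, from 4.66, 5.97 and 6.21 CPM to 1.86, 1.66 and 3.18 CPM (log2 fold change -1.26 ± 0.28, adjusted p = 9.35e-05). For all 3 genes the control and treated libraries did not overlap.

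CDH6 (K-cadherin, chr5:31193686-31329146, plus strand) and CDH24 were the most abundant type II cadherins per length. CDH6 stood at 127.9, 93.8 and 119.2 CPM in control and 22.6, 29.7 and 44.0 CPM in treated GFP-positive libraries (log2 fold change -1.75 ± 0.19, adjusted p = 1.37e-10). CDH24 stood at 80.2, 69.7 and 63.3 CPM against 23.3, 23.1 and 12.7 CPM (log2 fold change -1.79 ± 0.19, adjusted p = 6.56e-12). Both fell in every treated library relative to every control library. The summed level of the 13 type II cadherins was 284.8 ± 24.2 CPM (SD, n = 3) in control and 79.7 ± 5.6 CPM in treated GFP-positive cells, a ratio of 3.57. CDH22 (log2 fold change -1.86), CDH11, a mesenchymal cadherin (-1.40), and CDH5, the endothelial VE-cadherin (-2.69), completed the members that fell. Fibroblast markers summed to 260 to 326 CPM in control and 50.2 to 81.8 CPM in treated GFP-positive libraries, with 3 of 3 tested lower, and their part in the CDH11 result was not tested. CDH5 was scarce, at 0.41 to 0.74 CPM in control and 0.03 to 0.13 CPM (1 to 5 counts) in treated libraries.

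Type I cadherins did not follow the type II members. CDH3 (P-cadherin) rose from 3.77, 4.49 and 4.19 CPM to 12.1, 9.85 and 9.11 CPM, with a log2 fold change of 1.38 ± 0.24 (adjusted p = 6.87e-07). CDH1 (E-cadherin) passed both thresholds (log2 fold change 1.20 ± 0.51, adjusted p = 0.042). Its treated libraries, at 0.84, 0.77 and 1.01 CPM, overlapped with the control libraries at 0.11, 0.17 and 0.90 CPM, and the call was lost in 9 of 14 alternative analyses. CDH2 was 252, 244 and 353 CPM in control and 176, 204 and 150 CPM in treated libraries. These groups did not overlap, but the log2 fold change of -0.61 ± 0.16 (adjusted p = 0.00106) is under the minimum fold. CDH4 (R-cadherin) was 5.52 to 9.18 CPM in control and 9.28 to 11.6 CPM in treated libraries and was not called (adjusted p = 0.0661).

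Among the delta-1 protocadherins PCDH7 fell most, from 19.8, 21.2 and 26.3 CPM to 3.66, 5.50 and 3.36 CPM (log2 fold change -2.36 ± 0.23, adjusted p = 5.92e-15). PCDH9 fell from 21.7, 22.7 and 29.2 CPM to 7.23, 7.64 and 14.0 CPM (log2 fold change -1.28 ± 0.22, adjusted p = 2.01e-06). The other delta-1 members were not called. PCDH11X stood at 15.1 to 29.2 CPM in control and 21.4 to 23.0 CPM in treated libraries. It is nearly identical to PCDH11Y, so its count is uncertain. Thus 2 of 4 delta-1 genes were lower.

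In the delta-2 class 3 of 5 genes were lower: PCDH10, which acts in axon outgrowth, PCDH18 and PCDH19, the gene of an X-linked epilepsy. PCDH18 was 8.20, 10.6 and 13.0 CPM in control and 3.24, 3.04 and 4.18 CPM in treated libraries (log2 fold change -1.53 ± 0.24, adjusted p = 1.22e-07). PCDH10 was scarcer, at 2.76, 5.33 and 3.94 CPM against 1.95, 1.12 and 0.87 CPM (log2 fold change -1.55 ± 0.32, adjusted p = 2.7e-05). PCDH19 was 16.9, 21.0 and 23.6 CPM against 8.43, 8.19 and 10.1 CPM (log2 fold change -1.14 ± 0.21, adjusted p = 4.5e-06). In all 3 genes the groups were apart. PCDH17 (5.11 to 10.5 CPM in control, 4.55 to 7.36 CPM in treated libraries) was not called, and neither was PCDH8 (2.27 to 3.13 and 2.70 to 6.93 CPM). Outside these classes CDH23, a tip-link cadherin of hair cells, and PCDH12, a protocadherin of endothelium, fell. CDH23 was 1.88 ± 0.31 CPM (SD, n = 3) in control and 0.77 ± 0.25 CPM in treated libraries (log2 fold change -1.22, adjusted p = 0.00471), and its call was lost with the GC trend removed and under a test against a fold change of 2 itself. CDH13 (T-cadherin, held by a lipid anchor) was 4.51 to 6.05 CPM in control and 7.01 to 9.67 CPM in treated libraries, under the minimum fold (log2 fold change 0.76 ± 0.24, adjusted p = 0.00522).

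**Figure D2:**
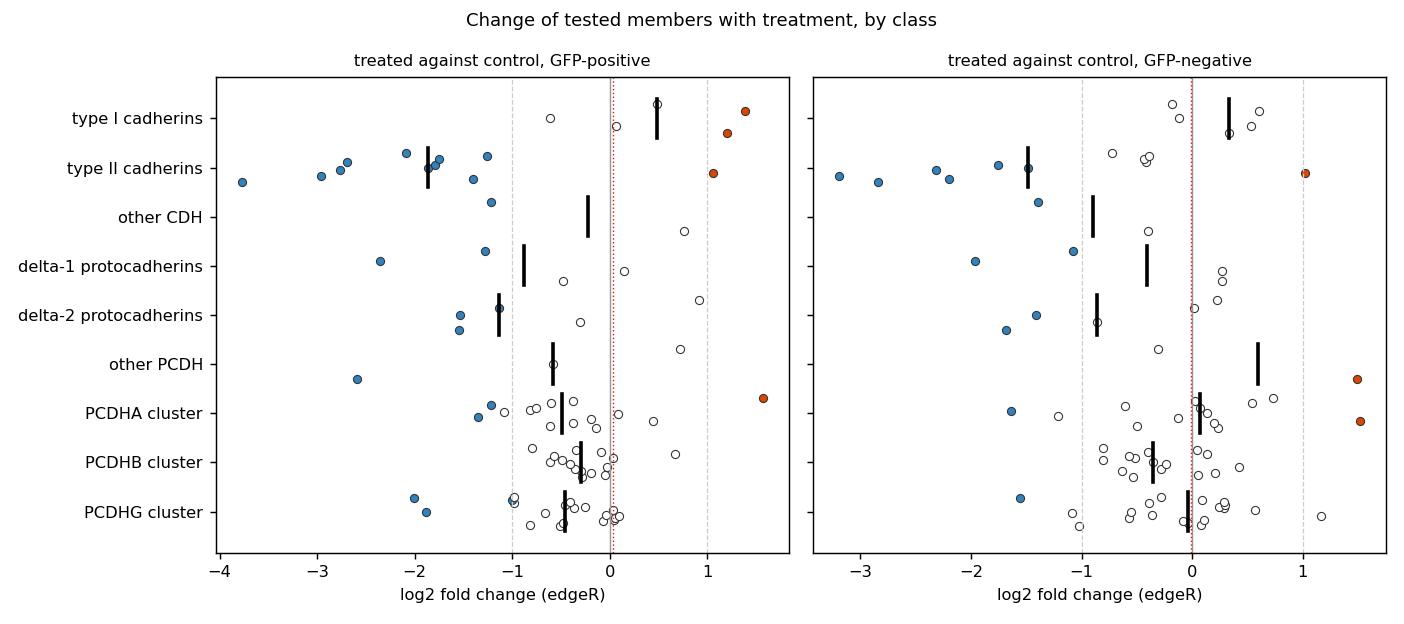
Log2 fold changes of treated against control libraries for the tested members of each class in GFP-positive (left) and GFP-negative cells (right); filled points passed the test (blue lower, orange higher), black bars are class medians, dashed lines mark a fold change of 2 and the red dotted line is the median of all genes tested. In GFP-positive cells 10 filled points of the type II row lie to the left, and the PCDHB row has no filled point.

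Of the clustered protocadherins tested, 5 of 48 were lower (10.4%), near the 11.1% of all genes, and 1 was higher (2.08%, against 12.7% of all genes). Among the 30 tested members outside the clusters 17 were lower (56.7%) and 3 higher, and the difference between these groups of members was not tested. Of the 48 clustered genes 39 had a negative log2 fold change, with a median of -0.37 against 0.03 for all genes tested. At an adjusted p under 0.05 without a minimum fold, 11 were lower and 1 higher, against 3779 and 4089 of all 15333 genes. The summed PCDHG row, tested as 1 gene, fell by less than the minimum fold (log2 fold change -0.67 ± 0.16, adjusted p = 0.000358). The summed PCDHA row did not differ (-0.12 ± 0.16, adjusted p = 0.568). None of the 15 PCDHB genes tested was called by edgeR or DESeq2, although 4 were lower and none higher at an unadjusted p under 0.05. PCDHB2 was 116.5, 134.4 and 141.8 CPM in control and 85.7, 90.2 and 69.3 CPM in treated libraries, which did not overlap. Its log2 fold change of -0.61 ± 0.16 (adjusted p = 0.0009) stayed under the minimum fold. PCDHGC4, a gamma member known for neuronal survival, fell from 6.75, 10.1 and 9.92 CPM to 2.43, 2.43 and 1.48 CPM (log2 fold change -2.01 ± 0.26, adjusted p = 5.21e-10). PCDHGC3 was 19.8, 35.5 and 31.3 CPM against 13.4, 12.9 and 15.0 CPM, and its log2 fold change of -1.002 sits at the threshold, and the call was kept in 6 of 15 alternative analyses. PCDHAC2, the last alpha member and one with its own type of promoter, rose from 1.23, 1.74 and 2.18 CPM to 6.30, 4.12 and 4.24 CPM (log2 fold change 1.57 ± 0.29, adjusted p = 4.18e-06). PCDHA4, the alpha member with the highest mean CPM, was 29.8, 31.5 and 40.7 CPM in control and 38.1, 34.6 and 30.3 CPM in treated libraries. These groups overlapped. PCDHA3, PCDHA8 and PCDHGA9, all at or under 2.85 CPM in each library, were the other members called lower. The call was lost without treated GFP-positive replicate 3 for PCDHA3, without control GFP-positive replicate 2 or 3 for PCDHGA9, and also without treated GFP-positive replicate 2 or 3 for PCDHA8.

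Of the 22 lower calls 12 were kept in every alternative analysis, and of the 4 higher calls none. Under a test against a fold change of 2 itself (glmTreat), 12 members were lower, 8 of them type II cadherins, and none was higher. The count of 4 higher members was 2 without control GFP-positive replicate 2 or without treated GFP-positive replicate 1, and the count of 5 lower clustered genes was 2 without control GFP-positive replicate 2 or 3 and 3 without treated GFP-positive replicate 3.

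The same treatment was compared in the GFP-negative cells, which are separate libraries. Here 13 of 76 members tested were lower (17.1%) and 3 higher (3.95%), against 9.73% lower and 8.59% higher among all 15513 genes tested. Type II cadherins made up 6 of the 13. The median log2 fold change was -1.48 for the 11 type II members tested, -0.29 for all members and -0.01 for all genes tested.

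CDH10 was 5.32, 7.49 and 8.82 CPM in control and 0.60, 1.02 and 1.42 CPM in treated GFP-negative libraries (log2 fold change -2.84 ± 0.37, adjusted p = 0.000357). CDH20 was 29.7, 30.7 and 24.8 CPM against 4.62, 6.91 and 5.84 CPM (log2 fold change -2.31 ± 0.22, adjusted p = 6.11e-05). CDH11 was 43.1, 61.7 and 72.4 CPM against 9.32, 18.4 and 11.4 CPM (log2 fold change -2.20 ± 0.29, adjusted p = 0.000376). Each of these 3 genes was apart between the groups. CDH12 (-3.19, with 1, 9 and 1 counts in the treated libraries), CDH24 (-1.75) and CDH22 (-1.48) were the other type II members that fell, with log2 fold changes in parentheses. Fibroblast markers summed to 760 to 885 CPM in control and 467 to 761 CPM in treated GFP-negative libraries, with 3 of 5 lower. The list was split: COL1A2 had a mean of 192.6 CPM in control and 300.2 CPM in treated libraries. These COL1A2 groups did not overlap, and the rise was under the minimum fold (log2 fold change 0.62, adjusted p = 0.012 in edgeR). Their part in the CDH11 result was not tested.

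CDH18 again went up, from 1.54, 2.29 and 1.88 CPM to 4.10, 4.47 and 3.22 CPM (log2 fold change 1.02 ± 0.30, adjusted p = 0.0255), a call lost without control replicate 1 or 2 or treated replicate 1 or 2. CDH6, CDH7 and CDH8 were not called: CDH6 was 118.6, 112.8 and 125.4 CPM in control and 76.4, 104.5 and 85.9 CPM in treated GFP-negative libraries, and its adjusted p was 0.0615. No type I cadherin was called by edgeR or DESeq2, and none had an unadjusted p under 0.05. CDH2 was 239, 289 and 285 CPM in control and 247, 321 and 193 CPM in treated libraries, which overlapped.

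PCDH7 (log2 fold change -1.96 ± 0.34), PCDH18 (-1.41 ± 0.24), PCDH10 (-1.69 ± 0.41), PCDH9 (-1.08 ± 0.33) and CDH23 (-1.39 ± 0.25) were lower in treated GFP-negative as in treated GFP-positive cells. PCDH19, at 20.4, 33.6 and 35.2 CPM in control and 25.3, 37.8 and 28.0 CPM in treated GFP-negative libraries, was not called. Of the 47 clustered genes tested, PCDHA13 was higher (log2 fold change 1.52 ± 0.43, a call lost without treated replicate 1 or 3), and PCDHGC4 (-1.55 ± 0.45) and PCDHA5 (-1.64 ± 0.53) were lower. PCDHGC4 was 2.46, 6.99 and 7.43 CPM in control and 1.17, 2.62 and 2.02 CPM in treated libraries, so that control replicate 1 lay inside the treated range. Without treated GFP-negative replicate 1 the counts were 8 lower and 0 higher, and 1 member was higher without control GFP-negative replicate 1 or 2 or without treated GFP-negative replicate 2 or 3. Among the lower genes the calls of CDH12, PCDH9, PCDH10, PCDHGC4 and PCDHA5 were lost without treated GFP-negative replicate 1, and 5 of the 13 were kept in every alternative analysis.

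Whether the response differed between the sort fractions was tested by an interaction term in a fit of all 12 libraries, with no minimum fold. Of 80 members tested, 2 were called lower, CDH6 and PCDH12, and 0 higher (1 at an unadjusted p under 0.05 and 1 by DESeq2), against 1.22% lower (198 genes) and 0.992% higher (161 genes) among 16226 genes. Scaled by library size alone, the calls over all genes were 81 lower and 260 higher, with the median of all genes moved from -0.05 to 0.21 on the log2 scale. With same-numbered libraries of both fractions taken as a block within each treatment, 8 members were lower, 3 of them type II cadherins, and 1 higher. Among all genes 5% were lower and 3.34% higher in that fit. The labels do not state that such libraries share a culture. The difference for CDH6 was -1.40 ± 0.29 on the log2 scale (adjusted p = 0.017). CDH8, the next type II gene by p, was not called and had -1.45 ± 0.48 (adjusted p = 0.13).

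PCDH12 (ENSG00000113555.6, chr5:141943581-141969741, minus strand) lies beyond the gamma cluster. It was 1.49, 2.14 and 1.25 CPM in control and 0.21, 0.37 and 0.19 CPM in treated GFP-positive libraries, and 0.39, 0.21 and 0.60 CPM in control and 1.34, 1.31 and 0.74 CPM in treated GFP-negative libraries. It thus fell in one fraction (log2 fold change -2.59 ± 0.46, adjusted p = 1.59e-06) and rose in the other (1.49 ± 0.50, adjusted p = 0.0438), and the difference was -4.17 ± 0.68 (adjusted p = 0.00413). Endothelial markers moved in both directions. KDR was higher in treated cells of both fractions, at 8.34 ± 1.23 CPM (SD, n = 3) against 1.29 ± 0.12 CPM in GFP-positive and 85.8 to 126.4 CPM against 8.94 to 10.2 CPM in GFP-negative cells. CLDN5 was lower in treated cells of both fractions, TEK was lower in treated GFP-negative cells (log2 fold change -2.25) and too scarce to test in GFP-positive cells, and PECAM1 was at or under 0.82 CPM in all libraries but control GFP-negative replicate 3, at 18.2 CPM. Their part in the PCDH12 result was not tested. PCDH19 had the third smallest p and was not called (difference -1.24 ± 0.32, adjusted p = 0.0545).

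**Figure D3:**
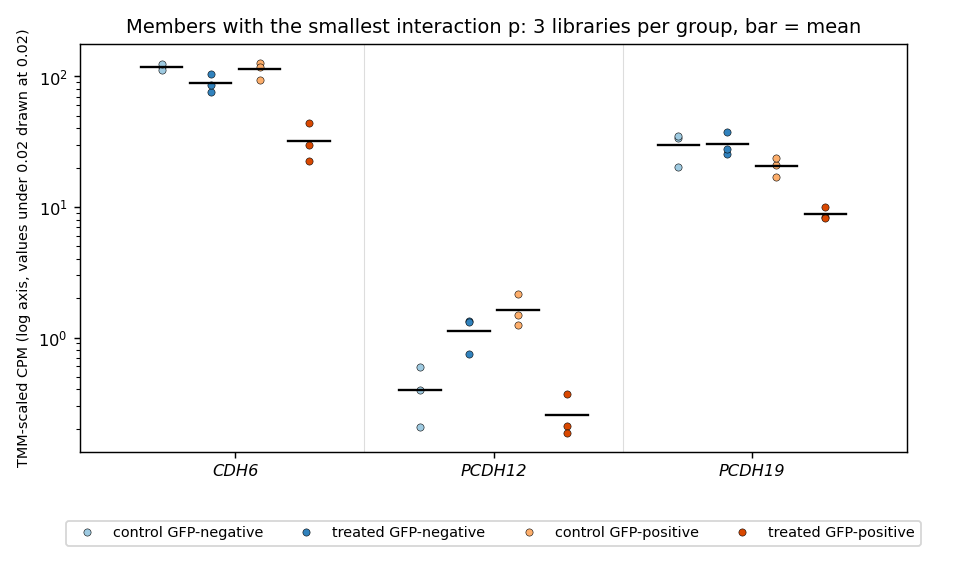
TMM-scaled CPM on a log axis of the 3 members with the smallest interaction p; points are single libraries and bars are means of 3 libraries. For PCDH12 the treated points lie under the control points in GFP-positive cells and above them in GFP-negative cells, and for CDH6 the treated GFP-positive points, at 22.6 to 44.0 CPM, lie under those of the other 3 groups.

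The CDH6 call was lost without control GFP-negative replicate 2, without control GFP-positive replicate 1, without treated GFP-positive replicate 1 and under scaling by library size alone (highest adjusted p 0.0882). The PCDH12 interaction was kept in 18 of 18 alternative analyses, whereas its rise in GFP-negative cells was kept in 5 of 14 and was lost without any 1 of 5 libraries.

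Control GFP-positive and GFP-negative cells were compared to see which members marked the sorted motor neurons without treatment. Of the clustered protocadherins tested, 20 of 49 were higher in the GFP-positive cells, 29 were not called and none was lower by edgeR's quasi-likelihood test (DESeq2 called 18 higher and 0 lower, and at an unadjusted p under 0.05 none was lower). Over all members tested, 27 of 79 were higher (34.2%) and 10 lower (12.7%), against 7.38% higher and 15.1% lower among 15404 genes. Among the 27, PCDHA8 (2, 14 and 5 GFP-negative counts), PCDHB8 (5, 19 and 9) and PCDH15 (6, 10 and 9) passed the count filter through their GFP-positive libraries. With at least 10 counts required in every library, 16 of 37 clustered genes were higher and 0 lower. Over all members 21 of 63 were then higher and 9 lower, against 7.07% and 13.9% of all genes. The median log2 fold change was 1.32 for PCDHA, 0.91 for PCDHB and 0.56 for PCDHG genes, 0.80 for all members and -0.01 for all genes tested. These clustered genes are not independent of one another, since they share a locus and, in PCDHA and PCDHG, exons.

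**Figure D4:**
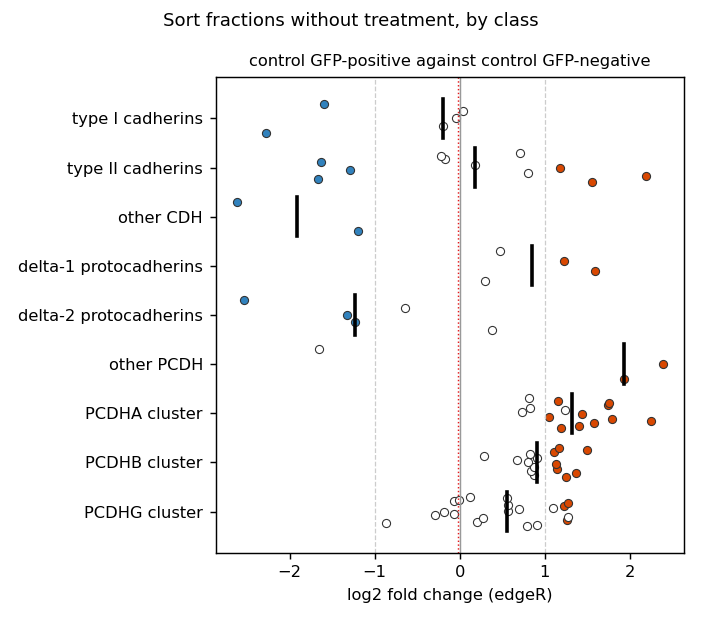
Log2 fold changes of control GFP-positive against control GFP-negative libraries for the tested members of each class; filled points passed the test (blue lower, orange higher), black bars are class medians, dashed lines mark a fold change of 2 and the red dotted line is the median of all genes tested. All 14 PCDHA and all 15 PCDHB points lie to the right of 0, while 3 of 5 delta-2 protocadherins are filled to the left.

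PCDHA4 was 29.8, 31.5 and 40.7 CPM in control GFP-positive and 7.95, 13.5 and 13.5 CPM in control GFP-negative libraries (log2 fold change 1.44 ± 0.25, adjusted p = 0.00109). PCDHA13 (2.25 ± 0.43) and PCDHA2 (1.79 ± 0.43) had the largest changes among the clustered genes with at least 1 CPM. In all 10 called PCDHA genes the groups did not overlap. These genes were picked by their calls on the same libraries, so this is a description and adds no support. The share of all genes without overlap was not counted. The summed PCDHA row, tested as 1 gene, was higher as well (log2 fold change 1.34 ± 0.26, adjusted p = 0.00268).

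PCDHB genes shared 0 annotated exon bases with another PCDH gene, and 7 of 15 tested were higher. PCDHB16 was 27.3, 34.0 and 33.9 CPM against 11.4, 15.8 and 13.3 CPM (log2 fold change 1.13 ± 0.20, adjusted p = 0.00118). PCDHB10 was 17.9, 16.2 and 21.7 CPM against 5.16, 7.90 and 8.66 CPM (log2 fold change 1.25 ± 0.25, adjusted p = 0.00256). PCDHB9, PCDHB14, PCDHB12, PCDHB7 and PCDHB8 were the other 5 called. PCDHB2 missed the minimum fold, with 116.5 to 141.8 CPM against 59.4 to 75.8 CPM (log2 fold change 0.80 ± 0.15, adjusted p = 0.00211).

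Of the 20 PCDHG genes tested, 3 were called, and 6 had a log2 fold change under 0. PCDHGB4 was 50.2, 75.1 and 81.3 CPM in control GFP-positive and 14.1, 36.0 and 31.9 CPM in control GFP-negative libraries (log2 fold change 1.22 ± 0.33, adjusted p = 0.0158). Replicate 1 was the lowest of both groups. The same held for the summed PCDHG level, which was 171.5, 271.8 and 270.1 CPM against 55.9, 158.5 and 158.4 CPM, and the summed row was not called (log2 fold change 0.83 ± 0.38, adjusted p = 0.121). PCDHGC3, whose C-type promoter is used in many cells, was 19.8, 35.5 and 31.3 CPM against 12.0, 33.6 and 34.9 CPM, with overlapping groups.

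**Figure D5:**
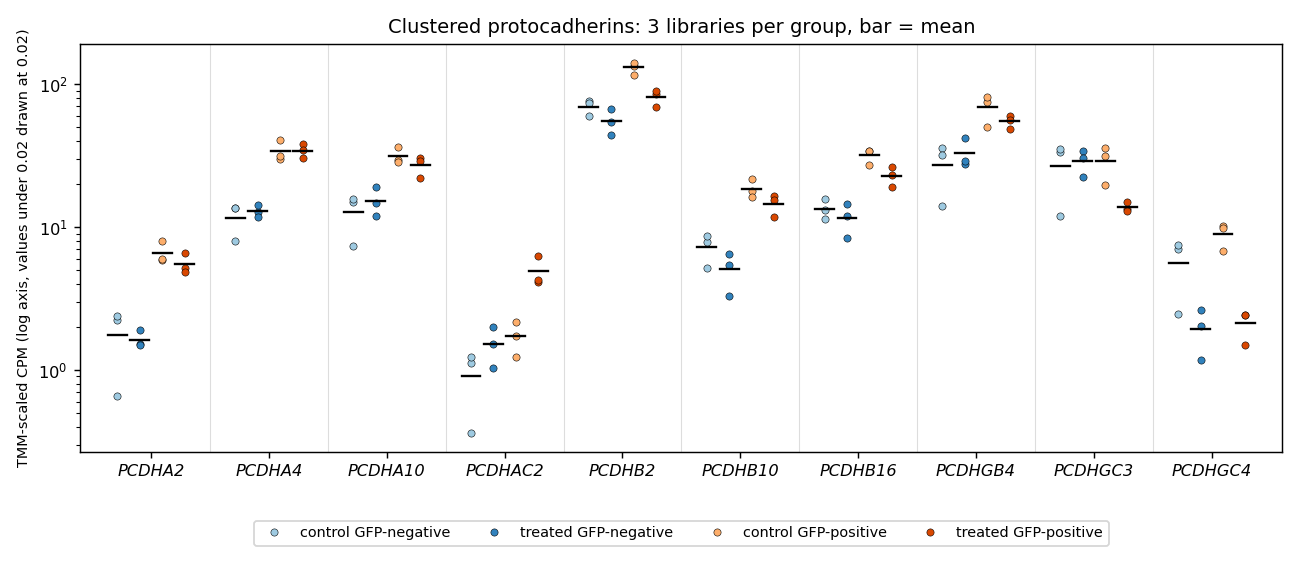
TMM-scaled CPM on a log axis of 10 clustered protocadherins; points are single libraries and bars are means of 3 libraries. PCDHA2, PCDHA4, PCDHA10, PCDHB10, PCDHB16 and PCDHGB4 lie higher in control GFP-positive than in control GFP-negative libraries, PCDHGC3 overlaps, and PCDHAC2 is highest in the treated GFP-positive libraries, at 4.12 to 6.30 CPM.

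Within each cluster 2 members held a large share of the counts, which were not scaled by exon length here. Per kb of unshared exon the order differed. In control GFP-positive cells PCDHA10 (mean of 2.48 CPM per kb) stood under PCDHA12 (3.36), PCDHA4 (3.22), PCDHA11 (2.72) and PCDHA2 (2.51). PCDHA4 and PCDHA10 together took 59.2 to 69.3% of the summed PCDHA CPM over the 12 libraries, PCDHB2 and PCDHB15 took 48.8 to 59.0% of PCDHB, and PCDHGB4 and PCDHGB6 took 42.2 to 64.6% of PCDHG. PCDHA1, whose annotated exons are 51.3% shared, was at or under 0.344 CPM in every library. How reads of the shared exons were assigned is not given in the sources used here, and single alpha and gamma counts are uncertain for that reason.

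Outside the clusters 7 of 30 members were higher and 10 lower in the control GFP-positive cells. CDH12 (log2 fold change 2.19 ± 0.44), CDH10 (1.56 ± 0.24), CDH22 (1.18 ± 0.24), PCDH7 (1.22 ± 0.25), PCDH11X (1.60 ± 0.46), PCDH15 (2.39 ± 0.42) and PCDH12 (1.93 ± 0.48) were the 7. CDH12 stood at 4.23 to 7.71 CPM in GFP-positive and 0.79 to 2.20 CPM in GFP-negative controls. CDH23 was lower by the widest margin, at 1.68, 2.23 and 1.73 CPM against 10.8, 10.3 and 11.2 CPM (log2 fold change -2.62 ± 0.24, adjusted p = 1.52e-05). PCDH8, a delta-2 protocadherin, was 2.27, 3.13 and 3.01 CPM against 14.0, 19.1 and 12.5 CPM (log2 fold change -2.54 ± 0.25, adjusted p = 2.56e-05). CDH1, CDH4, CDH5, CDH11, CDH13, CDH20, PCDH17 and PCDH18 were the other 8 lower members. CDH4 was 5.52 to 9.18 CPM against 16.6 to 26.8 CPM (log2 fold change -1.60 ± 0.27, adjusted p = 0.000864). CDH2, with 244 to 353 CPM against 239 to 289 CPM, and CDH6, with 93.8 to 127.9 CPM against 112.8 to 125.4 CPM, overlapped between the fractions.

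This comparison depended on single libraries. Without control GFP-positive replicate 3 the count of higher members was 16 of 80, of which 10 were clustered, 5 of them PCDHA and none PCDHG. The count of clustered genes was 12 without control GFP-negative replicate 1 and 13 without control GFP-positive replicate 2, and no PCDHG gene was called in either; without control GFP-negative replicate 1, 1 clustered gene was lower. The highest count of clustered genes was 25, without control GFP-negative replicate 3. Under glmTreat 4 members were higher, 1 of them clustered. In all, 4 of the 27 higher and 3 of the 10 lower calls were kept in every alternative analysis. Among single genes, PCDHB14 lost its call without control GFP-negative replicate 1, PCDHGB4 without that library or control GFP-positive replicate 2 or 3, and PCDH11X without control GFP-negative replicate 2 or control GFP-positive replicate 3. CDH1, CDH5 and PCDH17 lost theirs without control GFP-positive replicate 1 or 2, and CDH5 and PCDH17 also without control GFP-negative replicate 2.

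Genes that work with cadherins were counted by list. In treated against control GFP-positive cells, where 11.1% of all genes tested were lower and 12.7% higher, 1 of 9 catenins and adaptors was lower (11.1%), 1 higher (11.1%) and 7 were not called, which is near the share of all genes. JUP (plakoglobin, which links cadherins to the cytoskeleton) fell from 405.7, 554.5 and 435.4 CPM to 162.4, 192.1 and 116.8 CPM (log2 fold change -1.50 ± 0.17, adjusted p = 1.19e-11). PKP4, an adaptor of the p120 family, rose from 12.0, 14.0 and 18.9 CPM to 47.1, 43.3 and 38.9 CPM (log2 fold change 1.59, adjusted p = 7.26e-11), and its response differed between the fractions (interaction 1.68, adjusted p = 0.00359). Of 18 other cadherin superfamily genes tested, 3 were higher and 3 lower (16.7% each). RET, the GDNF receptor with cadherin-like domains, fell from 326.3, 360.5 and 307.5 CPM to 100.6, 123.5 and 68.0 CPM. FAT4 fell as well (log2 fold change -1.71), and so did CELSR2 (-1.51). DSC1, a desmosomal cadherin, rose from at or under 0.116 CPM to 1.19 to 2.01 CPM. It passed the count filter through its treated libraries alone.

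Of the 4 E-box repressors tested, known to repress CDH1, 2 rose (50%, against 12.7% of all genes). ZEB1 rose from 25.2, 27.9 and 36.7 CPM to 72.7, 65.5 and 102.0 CPM. The scarce SNAI2 rose to 0.66 ± 0.23 CPM (SD, n = 3) from 0.12 ± 0.08 CPM. It passed the count filter through its treated libraries alone, so the share of 50% rests in part on that filter. ZEB2 went the other way, from 51.0, 57.2 and 79.7 CPM to 33.9, 30.7 and 40.4 CPM, under the minimum fold (log2 fold change -0.77). Of 11 regulators of the clustered protocadherins (CTCF, cohesin and methylation genes), SMC3, a cohesin subunit, rose (log2 fold change 1.16), DNMT3B, a DNA methyltransferase, fell (-1.18), and 9 were not called. ADAM17, a sheddase, was the 1 of 8 cadherin shedding genes that rose (log2 fold change 1.48), and none of 8 protocadherin signalling genes was called by edgeR or DESeq2 (1 was higher at an unadjusted p under 0.05).

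In the GFP-negative cells, where 9.73% of all genes tested were lower and 8.59% higher, 0 of 9 catenins and adaptors were called by edgeR or DESeq2 (at an unadjusted p under 0.05, 1 was higher and 2 lower). CELSR2 (log2 fold change -1.42), RET (-1.29) and DNMT3B (-1.08) were lower, and ADAM17 (1.21), SNAI1 (1.37) and DSG2 (1.15) were higher. The other 10 regulators, 8 signalling genes and 7 shedding genes were not called there. Between the control fractions none of the 11 regulators of the clustered protocadherins was called by edgeR or DESeq2, and none had an unadjusted p under 0.05. CTNNA2, the neuronal alpha-catenin, was 131.0, 123.2 and 127.7 CPM in control GFP-positive and 28.1, 33.2 and 30.1 CPM in control GFP-negative libraries (log2 fold change 1.96). RET was higher there too (2.48), whereas CELSR1 (-2.86), FAT1 (-2.11), TWIST1 (-1.75) and TWIST2 (-3.76) were lower. TWIST1 and TWIST2 were near the floor in control GFP-positive cells, with means of 0.13 and 0.06 CPM. Both passed the count filter through the GFP-negative libraries alone (means of 0.42 and 0.86 CPM), and DESeq2 called 1 of the 2 lower.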

How the data were processed

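RNA-seq counts of 12 libraries were analysed, 3 in each of 4 groups, with treatment, sort fraction and replicate number taken from the labels. The deposited values are whole-number counts per gene symbol that the authors made from reads mapped to hg38 with HISAT2, and featureCounts is named in the submitters' processing notes. Libraries were made with a stranded mRNA kit. The version, the strand setting and the handling of reads that overlap several genes are not given in the sources used here, which matters for the PCDHA and PCDHG genes with shared exons. Of the per-sample columns, 0 were left unused.

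Tests were run in edgeR 4.0.16 (R 4.3.3) over all genes: TMM scaling, filterByExpr with a minimum count of 10, a robust quasi-likelihood fit, and Benjamini-Hochberg adjustment. A call needed an adjusted p under 0.05 and, except for the interaction, a change of 2-fold or more. Standard errors are the log2 fold change over the root of the F statistic. Tested on simulated counts, the scripts recovered the changed genes. Positions, exon lengths and GC content come from GENCODE v44 on hg38, which matched 25763 of 28278 symbols. Promoters come from RefSeq (GRCh38.p14).

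At this group size the permutations of 1 gene cannot give an exact p under 0.1, so none was used. Depths of 23414935 to 38347050 counts limit scarce members, and a group with at most 3 counts in each library was treated as at the floor. This covers counting error only.

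Alternatives were DESeq2 1.42.0 without independent filtering, RLE factors, scaling by library size alone, glmTreat, testing every gene without a filter, a minimum of 10 counts per library, a replicate block, all 12 libraries in 1 fit, each library left out, removal of the GC trend by loess, and PCDHA and PCDHG rows each summed to 1. Members, classes, partner lists and tests were chosen with earlier results of these data known. Genes named were a fixed list of 17 and up to 4 called members per direction and comparison with the largest change, no overlap and at least 1 CPM. Named too were the 3 smallest interaction p, the member of each cluster with the highest mean CPM, up to 2 called partner genes per list, and ISL1. Other genes are named where a count of calls was spelled out, after their values were seen.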

Additional observations from a re-analysis of the deposited data

Results flagged for a closer look

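The response to cis-chlordane differed between GFP-positive and GFP-negative cells for 2 members, by the interaction term in edgeR without a block. With the replicate block, 8 members were lower and 1 higher. For CDH6 the difference was -1.40 ± 0.29 on the log2 scale (SE, adjusted p = 0.017), with a log2 fold change of -1.75 in GFP-positive and -0.44 in GFP-negative cells, lower in treated than in control libraries in both. For PCDH12 it was -4.17 ± 0.68 (adjusted p = 0.00413), with -2.59 in GFP-positive and 1.49 in GFP-negative cells. PCDH12 was scarce, with 7 to 74 counts per library, and the smallest counts were those of treated GFP-positive and control GFP-negative cells.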

How the results depend on the processing

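No called change of a named gene turned direction under the alternatives, but the balance of calls over all genes did. Counts of members called are given as higher and lower. In GFP-positive cells (4 and 22) glmTreat gave 0 and 12, and 1 fit of all 12 libraries gave 2 higher; leaving out each library gave 2 to 4 higher and 19 to 25 lower. In GFP-negative cells (3 and 13) library size alone and at least 10 counts in every library gave 1 higher each, glmTreat 0 and 5; leaving out each library gave 0 to 3 and 8 to 15. Between control fractions (27 and 10) glmTreat gave 4 and 3, and 15 were higher with PCDHA and PCDHG rows summed; leaving out each library gave 16 to 32 and 7 to 12. For the interaction (0 and 2) DESeq2 gave 1 and 3, library size alone 1 and 1, at least 10 counts in every library 1 and 1, and removal of the GC trend 1 and 3; with no filter 3 were lower; leaving out each library gave 0 higher and 1 to 3 lower. Library size alone moved the median interaction of all genes from -0.05 to 0.21, and the share of higher among all calls from 44.8% to 76.2%. At least 10 counts in every library gave 69.1% there. Over all genes 1 fit of all 12 libraries gave 1753 higher and 1856 lower in GFP-positive cells (1950 and 1706). There glmTreat called 922 and 739, with 452 and 381 in GFP-negative cells (1332 and 1509) and 293 and 1397 between control fractions (1137 and 2325), and the interaction (161 and 198) gave 401 and 369 by DESeq2. Of the values of single genes and summed levels under alternatives, 1565 were the same, 205 lost the call, 18 gained it and 3 moved. For a single gene, the same meant an unchanged direction and call, also where neither analysis called it. For a summed level, which has no call, it meant a shift under the SD between replicates. The causes were not tested.

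The replicate block changed the interaction most, to 1 higher and 8 lower members (542 and 811 over all genes), with the 6 pairs of same-numbered fractions as the block. Blocking by replicate number gave 4 and 22 in GFP-positive cells, 2 and 12 in GFP-negative cells and 29 and 10 between control fractions. Same-numbered control libraries of both fractions had deviations that correlated by 0.281, 0.085 and 0.214, and treated ones by 0.16, 0.204 and 0.356. Each library correlated best with its own number, a hint from the data that the fractions of one number share a culture, but the 0.085 fell short of the 0.1 set for every pair and the labels do not state it. Treated and control libraries of one number correlated by -0.047 to 0.276. Summed levels moved by more than the spread between replicates with library size alone for 3 classes in treated GFP-positive cells: 86.4 CPM for type II cadherins, 122.8 for delta-1 and 26.9 for delta-2 protocadherins. Scarce members (10 untested in GFP-positive cells) are limited by depth.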
